A study of Mus musculus with 4 samples.

Results

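Solute carriers are membrane proteins that move sugars, amino acids, inorganic ions, metals, nucleosides and organic solutes across membranes. Their mRNAs were examined here in m6ARIP-seq of interscapular brown adipose tissue (iBAT) from *Mettl3* flox/flox mice and from BKO mice (*Mettl3* flox/flox UCP1-iCre), in which Cre recombinase under the *Ucp1* promoter deletes *Mettl3* in brown adipocytes. Members were all genes of the peak comparison table whose symbol begins with Slc or Slco followed by a digit, without the mitochondrial Slc25a carriers. This gave 72 of the 7077 genes and 86 of the 9243 regions in the table, out of 342 protein-coding solute carrier symbols of that kind in RefSeq. All mice were C57BL/6, carried floxed *Mettl3* alleles, were fed normal chow and were 8 weeks old. Each genotype was represented by 1 IP and 1 input library, made from RNA pooled from 5 mice. No comparison between genotypes therefore has a replicate, and the intervals given with values cover counting error only.

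In m6ARIP-seq, an antibody against N6-methyladenosine (m6A) captures fragments of mRNA (IP), which are compared with the fragments before capture (input). The fold enrichment of a region is its IP level over its input level, both as RPM, that is, scaled to the size of the library. METTL3 is the catalytic subunit of the complex that places m6A on mRNA, mostly near stop codons and in 3′-UTRs. In brown fat, solute carriers take up the glucose, amino acids and other substrates that the cells burn or store, clear noradrenaline, and exchange metals and ions with the blood or with organelles. The symbol does not give the membrane. The plasma membrane was among the gene ontology terms of 35 of the 69 members that had such terms in the table (50.7%, Wilson 95% interval 39.2 to 62.2), and the Golgi apparatus was a term of 11. The difference between genotypes is given throughout as a log2 ratio, the fold enrichment in BKO divided by that in flox/flox, so that negative values stand for lower enrichment in BKO. Its median was -1.24 in the 35 genes with the plasma membrane term and -1.33 in the 34 without it. *Slc7a6os*, a gene opposite *Slc7a6*, and the scaffold genes *Slc9a3r1* and *Slc9a3r2* share the naming but encode no carrier. They were kept because the rule takes them.

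Of the 57 members with a promoter window in RefSeq (250 bases before to 50 after a start site, GRCm38.p6), 2 had their most enriched region reaching into it. These were *Slc26a6*, an anion exchanger, and *Slc3a2*, the heavy chain of heteromeric amino acid transporters, and they differed in direction, with log2 ratios of -3.68 and 1.77. For each, 30 bases of the part that the region and the window share are shown on the strand of the gene, with GGAC in capitals, the core of the sequence in which METTL3 methylates the adenosine.
Slc26a6, chr9:108853916-108853945, plus strand, GRCm38: gaatcgcaggcagGGACagaagctaggccg
Slc3a2, chr19:8713854-8713883, minus strand, GRCm38: cgcccagcggcagaagcagttaggaagctc
The *Slc26a6* bases lie at -127 to -98 relative to the RefSeq start site, in a region that the authors' annotation places in a 5′-UTR. The *Slc3a2* bases lie 14 to 43 bases after its start site. The shared part was 188 bases for *Slc26a6* and held GGAC 1 time on the gene's strand and not on the other, as did 74.9% of all 32851 windows of full length in the same stretch on either strand. In the shared 36 bases of *Slc3a2*, GGAC was not found on either strand, while 25% of all windows had it there. The longer motif GGACT was in neither shared part. A match of this kind describes the letters only.

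Facts of the whole table that touch these genes are as follows. The 4 libraries held 8309098 (flox/flox IP), 8826904 (flox/flox input), 13687380 (BKO IP) and 13394053 (BKO input) reads, so the flox/flox input was the thinner denominator. The log2 ratio had a median of -1.05 over all 9243 regions, and after subtracting that shift the share of genes with lower enrichment in BKO went from 70.7% to 55.7%, and the share of members from 69.4% to 55.6%. *Mettl3* had no region in the table used here, so the deletion could not be checked from it. All 8 brown adipocyte markers looked up had a region, and their input summed to 1168 RPM in flox/flox, against 1992 RPM in BKO. The sum was carried by *Adipoq* and *Fabp4*, with 5 of the 8 higher, among them *Prdm16* from only 2 and 6 reads. *Ucp1* (229 and 216 RPM) and *Cidea* (6 and 9 reads) differed little. *Pparg* had no input read in either genotype, so its level cannot be compared. Input levels of other cells' markers moved as well. The 4 of 6 skeletal muscle genes with a region summed to 7.25 RPM in flox/flox, against 289 RPM in BKO (*Acta1* and *Ckm* had none), 3 of 4 fibroblast genes to 132 and 479 RPM, 2 of 4 macrophage genes to 2.95 and 19.5 RPM, and 4 of 4 endothelial genes to 235 and 142 RPM. Of the endothelial genes *Cdh5* and *Sox17* were lower, and *Kdr* and *Pecam1* higher. The macrophage genes *Adgre1* and *Cd68* and the fibroblast gene *Dcn* had no region, and the macrophage sum was carried by *Lyz2*. In such bulk tissue, fewer cells of a type and less RNA per cell cannot be told apart. The part of these levels in the values of the solute carriers was not tested.

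As a group, solute carrier transcripts had lower m6A enrichment in BKO iBAT, with counts close to those over all genes of the table, which include them. Taking for each gene its most enriched region, enrichment was lower in BKO for 50 of 72 members and higher for 22, beside 70.7% lower and 29.3% higher among all genes. It was at least 2-fold lower for 41 members (56.9%, Wilson interval 45.4 to 67.7), beside a background of 56.5%, and at least 2-fold higher for 12 (16.7%, 9.80 to 26.9), beside 17.0%. After subtraction of the shift of all regions, 23 were at least 2-fold lower and 22 at least 2-fold higher (all genes 36.5% and 29.9%), with a median of -0.28 (-0.79 to 0.50). The median log2 ratio was -1.33 (95% interval -1.84 to -0.55) for the members and -1.34 (-1.40 to -1.28) for all genes. The 16 Slc25a carriers of the inner mitochondrial membrane had a median of -1.74 (-3.20 to 0.31), and this interval spans that of the members. The ratios of *Slc9a2*, *Slco5a1*, *Slco6c1* and *Slc8b1* enter these counts although no enrichment can be compared for them, since *Slc9a2* and *Slco5a1* had no read in flox/flox and the other pair had no input read. The most enriched region of 17 members lies over more than 1 gene, with another gene named for 9 of them. For *Slc2a1*, *Slc12a4*, *Slc16a9*, *Slc20a2*, *Slc28a1*, *Slc35b4*, *Slc37a2* and *Slc39a7* the other gene has no name here. Reads in such regions cannot be divided between the genes.

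The fold enrichment itself ranged from 1.06 to 221 among members in flox/flox and from 1.01 to 84.2 in BKO, with medians of 5.53 and 2.92, against 7.31 and 3.05 over all genes. A fold enrichment of 10 or more was reached by 29 members in flox/flox and by 7 in BKO, and one under 2 was found for 11 and 24 members. These counts were not made over all genes, so they describe the members only and show no trait particular to them. The highest values in each genotype belong to *Slc8b1* and *Slco6c1*, which had no input read in either genotype at that region, so they rest on the read that the authors added to every count. Of the 43 members with 20 or more input reads in each genotype, 35 were lower and 8 higher, with a median of -1.63 (-2.18 to -0.86), and 74.2% of the 3605 such genes of the table were lower, with a median of -1.30.

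The counting interval of the log2 ratio lay below 0 for 38 members (52.8%, background 50.9%) and above 0 for 4 (5.56%, background 11.4%). These 4 were *Slc3a2*, *Slc5a3*, *Slc9a9* and *Slc31a2*. All 12 members that were at least 2-fold higher had a peak called in BKO only, as did 85.5% of the 1202 such genes of the table, and 8 of them had under 20 flox/flox input reads (66.7%, beside 62.6%). Of the 41 that were at least 2-fold lower, 26 had a peak called in flox/flox only (63.4%, 48.1 to 76.4, beside 49.6% of all 3996 such genes) and 15 in both genotypes (36.6%, beside 45.7%).

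**Figure D1:**
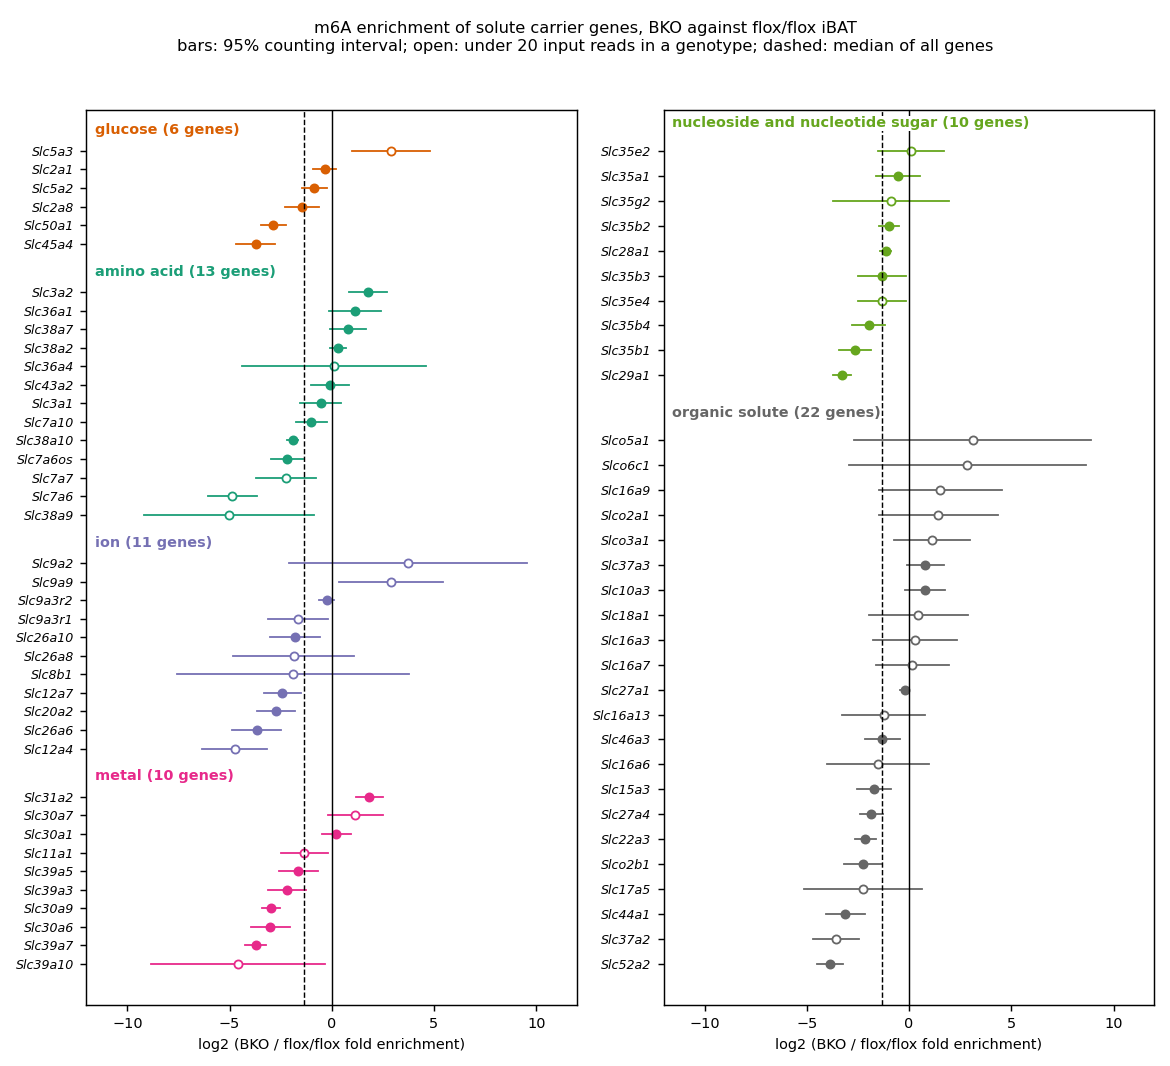
Log2 ratio (fold enrichment in BKO over flox/flox) of the 72 solute carrier genes, each at its most enriched region, by substrate class, with 95% counting intervals as lines. Open points have under 20 input reads in a genotype, the solid line is 0 and the dashed line the median of all genes (-1.34). The widest lines belong to open points, and those of genes with a count of 0, such as *Slc38a9* and *Slc9a2*, are placed by the read added to each count. Among genes with a read in every library, points range from -4.87 (*Slc7a6*) to 2.90 (*Slc9a9*).

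A ratio of enrichments can be low through the captured or the uncaptured RNA, so both levels were compared. The IP level was lower in BKO for 49 members (68.1%, background 58.6%) and the input level was higher for 49 (68.1%, background 74.4%). Of the 50 members with lower enrichment, 47 had a lower IP level (94.0%, 83.8 to 97.9), against 80.1% (79.0 to 81.2) of the 5000 genes with lower enrichment in the table. A higher input level was seen for 36 of the 50 (72%), against 75.6%. Thus nearly all the lower members had a lower captured level in BKO. The exceptions were *Slc27a1*, *Slc38a10* and *Slc43a2*, whose IP level was higher in BKO by 0.09, 0.05 and 0.62 on the log2 scale while their input levels were higher by 0.31, 1.96 and 0.71. The 50, like the 5000, were picked by a ratio that contains the IP level, which favours a lower one. Reads in the listed regions made up 48.4% of the flox/flox IP library and 28.7% of the BKO IP library. The IP levels given here are not corrected for this.

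**Figure D2:**
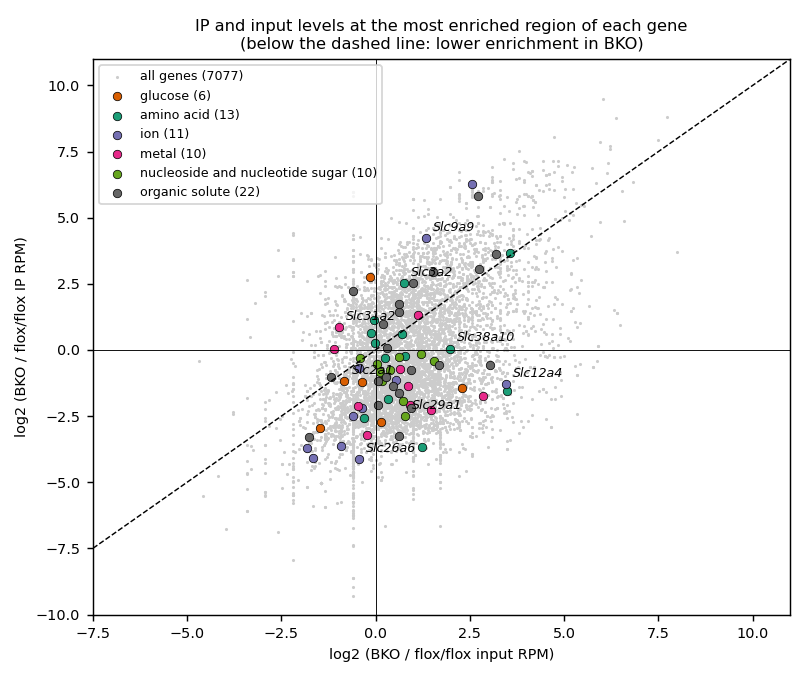
IP against input level of each gene at its most enriched region, both as log2 of BKO over flox/flox RPM, with the 72 solute carriers coloured by substrate class over all 7077 genes in grey. Genes below the dashed line have lower enrichment in BKO. Of the 72 solute carriers, 49 lie below 0 on the vertical axis and 49 to the right of 0 on the horizontal axis.

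The members were also compared by substrate class. Their median log2 ratios were -1.16 for the 6 glucose and inositol carriers, -0.55 (-2.26 to 0.77) for the 13 amino acid carriers, -1.86 (-3.68 to 2.90) for the 11 ion carriers, -1.91 (-3.72 to 1.15) for the 10 metal carriers, -1.23 (-2.65 to -0.55) for the 10 nucleoside and nucleotide sugar carriers and -0.73 (-2.14 to 0.81) for the 22 carriers of other organic solutes. Every one of these intervals overlaps the others and holds the median of all genes, so the data do not order the classes. With 6 genes, the interval for the glucose class is its whole range, -3.71 to 2.89. Enrichment was lower in BKO for 5 of 6, 8 of 13, 9 of 11, 7 of 10, 9 of 10 and 12 of 22 members in that order, and after subtraction of the shift of all regions for 3, 5, 8, 7, 6 and 11. The shares over all genes were 70.7% and 55.7%.

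Among glucose carriers, the enrichment of *Slc2a1*, which encodes the glucose transporter of basal uptake, differed little while its levels were lower in BKO. It measured 81.0 RPM in the flox/flox IP, 14.6 RPM in the flox/flox input, 35.6 RPM in the BKO IP and 8.21 RPM in the BKO input. Its fold enrichment was 5.54 and 4.33, with a log2 ratio of -0.36 (-0.93 to 0.22), so both the captured and the uncaptured RNA were lower in BKO and the ratio was not distinguishable from 0 at this depth. It turned positive (0.69) after subtraction of the shift of all regions. *Slc2a4*, the insulin-responsive glucose transporter of adipocytes, had no region in the table. *Slc2a8*, a hexose transporter of intracellular membranes, went from 40.3 to 5.26 RPM in the IP and from 11.8 to 4.26 RPM in the input, and its enrichment from 3.42 to 1.24 (log2 ratio -1.47, -2.31 to -0.63).

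The lowest ratios of the class were found in less well known sugar carriers. *Slc45a4*, a putative sugar carrier, had a fold enrichment of 18.1 in flox/flox and 1.38 in BKO (-3.71, -4.66 to -2.77). Its IP level was 47.1 and 17.5 RPM while its input level was 2.61 and 12.7 RPM. In this region the captured RNA was thus lower and the input level higher in BKO. The level of the whole transcript was not measured. *Slc50a1*, the mammalian SWEET sugar carrier, went from 108 to 16.4 RPM in the IP with input levels of 9.52 and 10.5 RPM, and its enrichment was 11.4 and 1.57 (-2.86, -3.48 to -2.23). In both genes the peak was called in flox/flox only.

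Inositol transport stood on the other side. *Slc5a3*, the sodium-coupled myo-inositol carrier, had 14 IP and 10 input reads in flox/flox and 164 and 14 in BKO, and its fold enrichment was 1.45 and 10.8 (log2 ratio 2.89, 0.97 to 4.81). Its region also lies over *Mrps6*, a mitochondrial ribosomal protein gene, and the reads cannot be divided between the genes. The sodium-glucose carrier of kidney, *Slc5a2*, had a log2 ratio of -0.86 (-1.47 to -0.24) in a region shared with *BC017158*.

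The amino acid carriers included members of both directions at similar depth. *Slc3a2*, whose protein pairs with light chains of the Slc7 family and brings them to the cell surface, measured 6.02 RPM in the flox/flox IP and 34.7 RPM in the BKO IP, with input levels of 4.87 and 8.21 RPM. Its fold enrichment was 1.24 and 4.23, a log2 ratio of 1.77 (0.84 to 2.71), in an internal exon with a peak called in BKO only. The light chains with a region all had lower enrichment in BKO, beside 70.7% of all genes. *Slc7a6*, an exchanger of cationic for neutral amino acids, had IP levels of 76.4 and 6.06 RPM over inputs of 1.93 and 4.48 RPM, and its enrichment was 39.7 and 1.35 (-4.87, -6.07 to -3.68). This was one of the lowest ratios of all members, but the flox/flox input held 16 reads. *Slc7a7*, the related exchanger of epithelia and macrophages, had -2.26 (-3.72 to -0.79) in a region that also lies over *Oxa1l*. *Slc7a10*, a neutral amino acid carrier of the adipocyte surface, went from 2.39 to 1.19 (-1.01, -1.77 to -0.26) in a region shared with *Lrp3*, and its log2 ratio was close to the shift of all regions. *Slc7a5*, *Slc7a11* and *Slc1a5* had no region in the table.

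Carriers of the Slc38 and Slc36 families, several of which sit on lysosomes and take part in amino acid sensing, were split. *Slc38a2*, the sodium-coupled carrier of glutamine and alanine, had enrichments of 2.34 and 2.86 (0.29, -0.11 to 0.69) with input levels of 26.4 and 26.1 RPM. Neither its input nor its enrichment differed much between genotypes. *Slc38a7*, a lysosomal glutamine carrier, had 2.83 and 4.83 (0.77, -0.10 to 1.65), and *Slc36a1*, a proton-coupled carrier of small amino acids, had 1.57 and 3.49 (1.15, -0.12 to 2.43). For neither was the ratio distinguishable from 0 at this depth. *Slc38a10* was lower (4.36 and 1.16, -1.91, -2.17 to -1.65), and here the IP level was nearly equal, 185 and 192 RPM, over input levels of 42.5 and 165 RPM. The lower ratio of *Slc38a10* thus came with a higher input level and no lower IP level.

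*Slc38a9*, an arginine sensor of the lysosome, had 150 IP reads and no input read in flox/flox, and 84 and 16 in BKO. With 3 reads set for the library without any, its flox/flox enrichment came to 53.1 and was 10.3-fold that of BKO. These values leave out the counting error of the other libraries. The counting interval of its log2 ratio ran from -9.19 to -0.88. *Slc36a4* had 4 and 0 reads in flox/flox and 103 and 17 in BKO, too few in flox/flox for a ratio. *Slc7a6os*, which encodes no carrier, had enrichments of 16.2 and 3.59 (-2.18, -2.95 to -1.40) on the same chromosome as *Slc7a6*. The remaining members of the class, *Slc3a1* (shared with *Prepl*) and *Slc43a2*, had ratios of -0.55 and -0.10 with intervals that hold 0.

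Several ion carriers had much less captured RNA in BKO, and some of them also less input. The input level was lower in BKO in 7 of 11 members and the IP level in 9 of 11, beside 1813 and 4144 of all 7077 genes. The 7 include *Slc8b1*, which had no input read in either genotype, and *Slc26a8*, with 6 and 2 input reads. They also include the scaffold gene *Slc9a3r2*. Among the 7, the counting interval of the input difference lay below 0 only for *Slc9a3r2*, *Slc12a7* and *Slc20a2*. The median log2 ratio of the class depended on the region taken: with the region of most input reads it was -0.25, and 6 of 11 members were lower. *Slc26a6*, the anion exchanger whose sequence is shown above, went from 92.7 to 5.33 RPM in the IP with inputs of 2.83 and 2.09 RPM, and its fold enrichment was 32.7 and 2.55 (-3.68, -4.89 to -2.48). *Slc20a2*, a sodium-phosphate carrier, went from 101 to 8.11 RPM in the IP and from 5.78 to 3.06 RPM in the input, an enrichment of 17.5 and 2.65 (-2.73, -3.66 to -1.79). *Slc12a7*, a potassium-chloride carrier, had 85.1 and 5.04 RPM in the IP and 9.63 and 3.06 RPM in the input, an enrichment of 8.84 and 1.65 (-2.42, -3.34 to -1.51). In all 3 genes the IP level was much lower in BKO. The log2 difference in input was -1.65 (-2.41 to -0.89) for *Slc12a7* and -0.92 (-1.76 to -0.08) for *Slc20a2*. For *Slc26a6* it was -0.44 (-1.54 to 0.66), not distinguishable from 0.

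The related carrier *Slc12a4* differed in both levels. Its IP level was 62.0 and 25.2 RPM, its input level 0.79 and 8.66 RPM (6 and 115 reads), and its enrichment 78.2 and 2.91 (-4.75, -6.33 to -3.17). The 3 anion exchangers of the Slc26 family were all lower, also after subtraction of the shift of all regions (all genes 70.7% and 55.7%). *Slc26a10* had a log2 ratio of -1.81 (-3.02 to -0.60) in a region shared with *B4galnt1*, and *Slc26a8*, known from sperm, had -1.86 with only 2 input reads in BKO and an interval of -4.81 to 1.08.

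Both sodium-proton exchangers of the Slc9 family with a region had more captured RNA in BKO, from very few flox/flox reads. *Slc9a9*, an exchanger of endosomes, had 6 IP and 4 input reads in flox/flox and 214 and 18 in BKO, an enrichment of 1.49 and 11.1 (2.90, 0.37 to 5.43). *Slc9a2* had no read in either flox/flox library and 128 IP and 8 input reads in BKO, so no ratio of enrichments can be given. With 3 reads set for the flox/flox IP, its IP level was 25.9-fold higher in BKO. The counting interval of this difference was 2.28 to 10.3 on the log2 scale. The scaffold gene *Slc9a3r2*, with about equal and high coverage, had 1.86 and 1.56 (-0.25, -0.61 to 0.10). *Slc8b1*, the sodium-calcium exchanger of mitochondria, is described with the genes of several regions.

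Metal carriers comprised a set of zinc importers with lower enrichment and a mixed set of exporters. All 4 importers of the Slc39 family were lower in BKO, before and after subtraction of the shift of all regions. Of all genes of the table, 70.7% and 55.7% were. With 4 genes this shows no trait of the family. *Slc39a7*, the zinc channel of the endoplasmic reticulum, went from 231 to 48.2 RPM in the IP and from 9.52 to 26.2 RPM in the input, and its enrichment was 24.3 and 1.84 (-3.72, -4.24 to -3.20). *Slc39a3* had 13.2 and 2.88 (-2.20, -3.11 to -1.28) and *Slc39a5* had 3.29 and 1.06 (-1.63, -2.59 to -0.67) in a region labelled outside the gene. *Slc39a10* had 66 IP reads and no input read in flox/flox, and 32 and 10 in BKO. With 3 reads set for the empty library, its flox/flox enrichment came to 23.4 and was 7.46-fold that of BKO. The counting interval of its log2 ratio was wide, -8.86 to -0.34.

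The zinc exporters of the Slc30 family were divided evenly. *Slc30a6*, of the Golgi apparatus, had IP levels of 89.8 and 21.0 RPM and an enrichment of 29.4 and 3.66 (-3.00, -3.94 to -2.07). *Slc30a9*, of mitochondria, had IP levels of 191 and 20.8 RPM over inputs of 24.4 and 20.7 RPM, and its enrichment was 7.85 and 1.01 (-2.96, -3.41 to -2.52), which in BKO means no enrichment over input. The exporter of the plasma membrane, *Slc30a1*, had levels of 25.9 and 65.4 RPM in the IP and 5.55 and 12 RPM in the input, and its enrichment of 4.66 and 5.44 (0.22, -0.50 to 0.94) was not distinguishable between genotypes. *Slc30a7*, another Golgi exporter, had 2.95 and 6.54 (1.15, -0.18 to 2.48).

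*Slc31a2*, a low-affinity copper carrier of endosomes and lysosomes, had the most input reads of the 4 members whose counting interval lay above 0. Its IP level was 20.8 and 37.9 RPM and its input level 12.9 and 6.57 RPM. In this region the captured RNA was thus higher and the input level lower in BKO. Fold enrichment was 1.61 and 5.77 (1.84, 1.17 to 2.51). *Slc11a1*, a metal-ion carrier of macrophage phagosomes, had input levels of 2.15 and 3.36 RPM and a log2 ratio of -1.34 (-2.49 to -0.20). The counting interval of its input difference, -0.45 to 1.74 on the log2 scale, held 0. Of the macrophage genes with a region, *Lyz2* had input levels of 1.02 and 16.8 RPM and *Csf1r* 1.93 and 2.69 RPM. Whether macrophage RNA has a part in the values of *Slc11a1* was not tested. *Slc40a1*, *Slc11a2* and *Slc39a14*, carriers of iron and zinc, had no region in the table.

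Nucleoside and nucleotide sugar carriers had a lower IP level in BKO in all 10 members (background 58.6%), and a higher input level in 9 (background 74.4%). These counts take the sign only. Log2 counting intervals of the IP difference held both signs for *Slc35e2* (-0.97 to 0.33), *Slc35e4* (-0.53 to 0.25) and *Slc35g2* (-0.95 to 0.42). Among the 9, those of the input difference held both signs for *Slc35a1*, *Slc35b2*, *Slc35b3* and *Slc35g2*. *Slc29a1*, the equilibrative nucleoside transporter that carries adenosine over the plasma membrane, went from 206 to 36.2 RPM in the IP, with input levels of 18.4 and 31.4 RPM. Its fold enrichment was 11.2 and 1.15 (-3.28, -3.70 to -2.86). *Slc28a1*, a concentrative nucleoside carrier known from intestine and liver, had a smaller difference in an intron, 3.30 and 1.5 (-1.14, -1.42 to -0.86), close to the shift of all regions. That region also lies over another, unnamed gene, so its reads may not belong to *Slc28a1*.

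The Slc35 family supplies the endoplasmic reticulum and the Golgi apparatus with nucleotide sugars and related substrates. Enrichment was lower in 7 of its 8 members, and in 4 after subtraction of the shift of all regions (all genes 70.7% and 55.7%). *Slc35b1*, of the endoplasmic reticulum, had 9.83 and 1.56 (-2.65, -3.43 to -1.88), with IP levels of 52.4 and 13.7 RPM over inputs of 5.32 and 8.74 RPM. *Slc35b2* and *Slc35b3*, which carry the activated sulfate donor, had -0.97 (-1.47 to -0.47) and -1.32 (-2.48 to -0.17). *Slc35a1*, the carrier of activated sialic acid, had 4.76 and 3.26 (-0.55, -1.61 to 0.52), not distinguishable from 0. *Slc35e2* was the member with a ratio above 0 (0.09), in a region shared with *Gm10563*.

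The largest class, carriers of other organic solutes, had a thin flox/flox input, with under 10 reads in 10 of its 22 members, as in 5 of the 11 ion carriers. The share was 26.4% over all members and 32% over all genes. *Slc52a2*, a riboflavin carrier, had the lowest ratio in the class, with IP levels of 155 and 16.2 RPM over inputs of 8.61 and 13.1 RPM and an enrichment of 18 and 1.23 (-3.86, -4.49 to -3.24). *Slc44a1*, a choline carrier, had 67.6 and 14.8 RPM in the IP and an enrichment of 22.1 and 2.55 (-3.12, -4.07 to -2.17). *Slc22a3*, an organic cation carrier that takes up noradrenaline, had 146 and 34.9 RPM in the IP over nearly equal inputs of 13.5 and 14.2 RPM, and its enrichment was 10.8 and 2.46 (-2.14, -2.65 to -1.62). For *Slc22a3* the difference thus lay in the captured RNA.

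The fatty acid carriers differed from each other. *Slc27a1*, the long-chain fatty acid carrier of muscle and fat, had the deepest input of the class, 84.4 and 105 RPM, with IP levels of 139 and 148 RPM and an enrichment of 1.64 and 1.41 (-0.22, -0.45 to 0.02). *Slc27a4* had IP levels of 50.2 and 19.4 RPM, input levels of 13.3 and 18.4 RPM and an enrichment of 3.79 and 1.06 (-1.84, -2.39 to -1.29). The intervals of these log2 ratios do not overlap. Of the Slc16 family, which includes the monocarboxylate carriers, 5 members had a region. Their ratios ran from -1.5 (*Slc16a6*) to 1.54 (*Slc16a9*), and all intervals held 0. *Slc16a3*, the lactate exporter of glycolytic cells, had 25 IP and 4 input reads in flox/flox and 354 and 50 in BKO, so both levels were higher in BKO while the enrichment was 5.52 and 6.81 (0.30, -1.74 to 2.35). Skeletal muscle also uses this carrier, and the 4 muscle genes with a region were higher in the BKO input as given above. Whether muscle RNA has a part in the levels of *Slc16a3* was not tested. *Slc16a1*, a widely used lactate carrier, had no region in the table.

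Organic anion carriers of the Slco family had 5 members in the table. Of these, *Slco2b1* had 1 region on either side of 0, and the others had between 0 and 8 flox/flox input reads, with intervals that hold 0. *Slco2a1*, the prostaglandin carrier, had 8 IP and 2 input reads in flox/flox and 113 and 12 in BKO (1.43, -1.48 to 4.34). *Slco3a1* had 21 and 8 reads in flox/flox and 121 and 20 in BKO (1.13, -0.71 to 2.97). *Slco5a1* had no read in flox/flox and 93 and 9 in BKO. With 3 reads set for the flox/flox IP, its IP level was 18.8-fold higher in BKO. The counting interval of this difference was 1.81 to 9.85 on the log2 scale. *Slco6c1* had no input read in either genotype and 10 and 85 IP reads. For *Slco5a1* and *Slco6c1* no enrichment can be compared. *Slc10a3* and *Slc37a3* had ratios of 0.78 (-0.19 to 1.76) and 0.81 (-0.12 to 1.73).

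Taking the gene by its most enriched region hides that some transcripts carried several regions. There were 61 members with 1 region, 9 with 2, 1 with 3 and 1 with 4. Of the 11 members with several regions (25 regions), 8 had regions on both sides of 0 (72.7%, Wilson interval 43.4 to 90.3), beside 52.5% of the 1750 such genes in the table, and 3 had lower enrichment in all (*Slc26a10*, *Slc30a9* and *Slc7a6*). *Slco2b1* was the member in which 2 counting intervals lay on opposite sides of 0. Both of its regions are in the 3′-UTR, 940 bases apart on chromosome 7 (GRCm38). The region from 99658440 to 99658779 had 170 IP and 28 input reads in flox/flox and 191 and 141 in BKO, a fold enrichment of 6.26 and 1.32 (-2.24, -3.16 to -1.33). The region from 99659720 to 99660095 had 60 and 60 reads in flox/flox and 477 and 135 in BKO, a fold enrichment of 1.06 and 3.44 (1.69, 0.87 to 2.52). The gene carries organic anions such as steroid sulfates.

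Other transcripts had a flat and a low region. *Slc8b1* had 2 regions 106 bases apart in its 3′-UTR, one with a log2 ratio of 0.22 (-0.87 to 1.31) and one with -2.55 (-3.81 to -1.29), beside a 5′-UTR region at 0.61 and an intronic region with 207 and 60 IP reads and no input read. *Slc12a7* had -2.42 in an internal exon and 0.55 (-0.01 to 1.11) in its last exon. *Slc38a10* had -1.91 in its 3′-UTR and 0.51 (-0.30 to 1.31) in an internal exon. *Slc35b4*, a carrier of nucleotide sugars, had 3 regions in its 3′-UTR with -1.97 (-2.78 to -1.16), -0.23 (-1.44 to 0.99) and 0.31 (-0.64 to 1.25). *Slc15a3*, a carrier of peptides and histidine, had 1.54 (-1.58 to 4.65) in its first exon and -1.71 (-2.53 to -0.89) in its last exon, where the region also lies over *Tmem132a*. *Slc9a3r1* had 0.07 (-1.19 to 1.33) in its last exon and -1.66 (-3.13 to -0.19) in its 3′-UTR. *Slc16a6* had 0.80 (-1.50 to 3.11) in an internal exon and -1.5 (-4 to 0.99) in an intron. In each of these genes but *Slc16a6*, the interval of the region with the lowest ratio lay below 0, while the intervals of the regions above 0 held 0. In *Slc8b1* and *Slc9a3r1* that lowest region had only 19 and 14 flox/flox input reads.

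**Figure D3:**
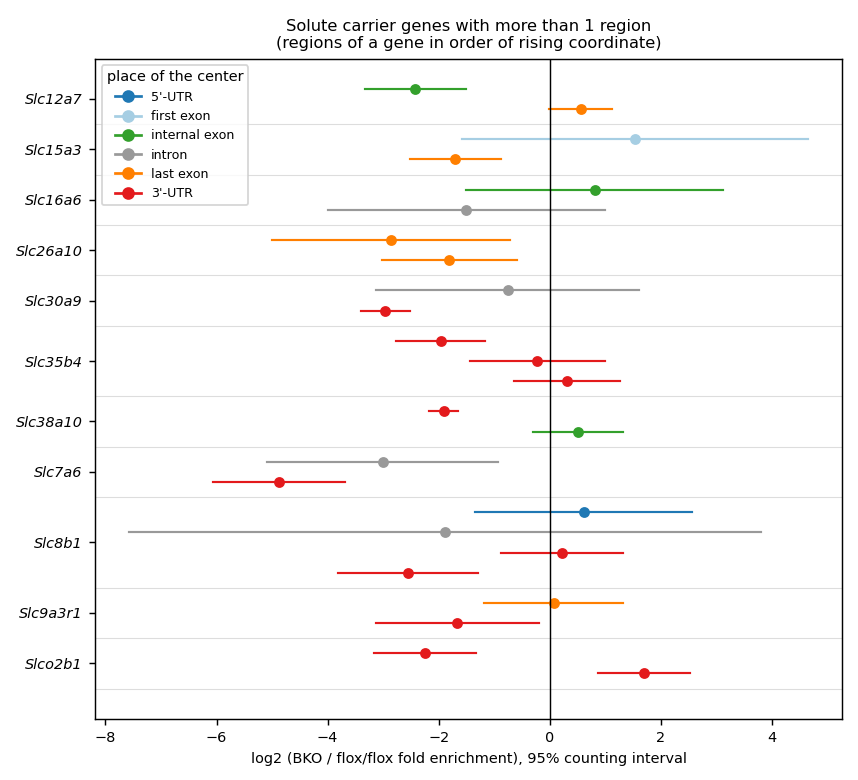
Log2 ratio (fold enrichment in BKO over flox/flox) for the 25 regions of the 11 solute carrier genes with more than 1 region, with 95% counting intervals as lines and colours for the place of the peak center. In *Slco2b1*, 2 regions of the 3′-UTR lie at -2.24 and 1.69.

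The regions of solute carriers lay mostly at the 3′ end of the transcript, by the authors' label for the peak center. Of 86 member regions, 36 were in a 3′-UTR, 29 in a last exon, 11 in an intron, 5 in an internal exon, 3 in a 5′-UTR or first exon and 2 outside the gene. The last exon and 3′-UTR together made 75.6% (Wilson interval 65.5 to 83.4), against 61.1% of the 9420 pairs of a region and a named gene in the table. The share was 77.4% (65.6 to 86.0) of the 62 member peaks called in flox/flox, against 69.3% in the table, and 81.1% (68.6 to 89.4) of the 53 called in BKO, against 58.9%. Among peaks called in BKO only, it was 70.8% (50.8 to 85.1) of 24 member peaks and 44.2% (42.5 to 46.0) of 3078 pairs in the table. A 5′-UTR or first exon held 3.77% (1.04 to 12.8) of the member peaks called in BKO, against 11.9%. The intervals for members and table overlap for flox/flox and do not for the last exon and 3′-UTR in BKO. No test of this difference was made.

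Peaks were called in both genotypes at 29 of the 86 regions (33.7%, background 38.2%), in flox/flox only at 33 (38.4%, 28.8 to 48.9, background 29.4%) and in BKO only at 24 (27.9%, 19.5 to 38.2, background 32.4%). The interval for each share holds its background. Among member regions in the 3′-UTR, 21 had lower and 15 higher enrichment in BKO (58.3% lower, 42.2 to 72.9), with a median of -0.89 (-2.14 to 0.29), while 76.2% of all 3220 pairs in a 3′-UTR were lower, with a median of -1.45 (-1.51 to -1.36). In the last exon, 20 of 29 member regions were lower, with a median of -0.97 (-1.84 to 0.07), beside 67.2% and -1.08 in the table. In introns, 9 of 11 were lower, with a median of -1.89 (-3.58 to 0.45), beside 70.5% and -1.49. No test of these differences was made.

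**Figure D4:**
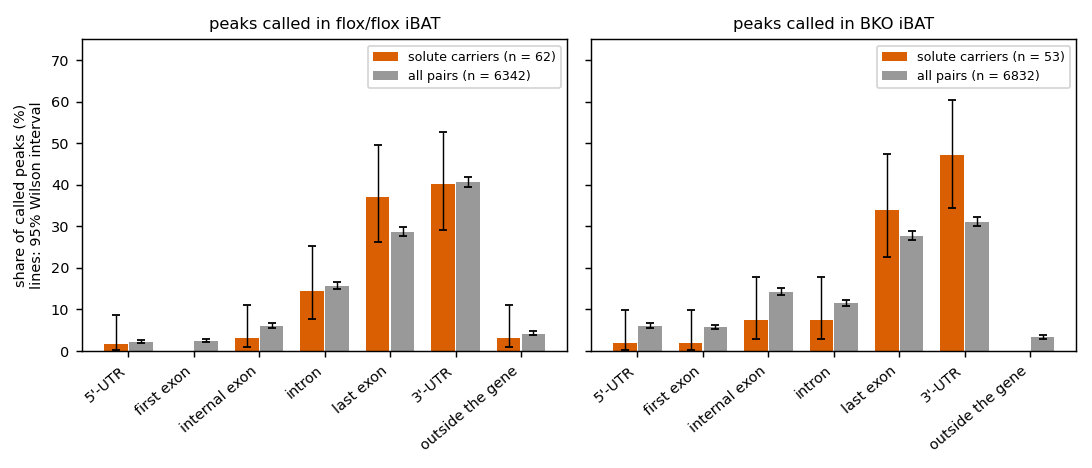
Share of called peaks by the place of the peak center, for flox/flox (left) and BKO (right), with solute carriers in orange, all pairs of a region and a named gene in grey, and 95% Wilson intervals as lines. In BKO, last exon and 3′-UTR together hold 81.1% of 53 member peaks and 58.9% of all pairs.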

How the data were processed

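m6ARIP-seq libraries of iBAT (1 IP and 1 input per genotype) were analysed as the peak comparison table deposited by the authors. By the study's methods and the submitters' processing notes, reads were mapped to GRCm38 with BWA (0.7.12-r1039) and peaks called with MACS2 (2.1.0). How regions were joined and reads counted, and from which base coordinates count, is not given in the sources used here. Per region, the deposited table holds whole read counts, RPM that the authors computed with 1 added to each count, and fold enrichment, the ratio of IP to input RPM. No enrichment at or below 1 is listed. The authors' own log2 ratios and peak comparison columns were not used. Columns were matched to genotypes by name.

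For each gene, the region of highest enrichment in any genotype was used, and log2 ratios of BKO over flox/flox were computed from the fold enrichments. Counting intervals (95%) used counts plus 1 on the log scale and 2 reads per fragment, since 77.2 to 92.5% of counts between 1 and 20 were even. For a library with no read, 3 reads were set without the added 1, which leaves out the counting error of the other libraries. Shares have Wilson and medians binomial order-statistic intervals, which treat genes as independent although they are not. Classes follow family numbers. The genes named were, in each class, the 3 lowest and 2 highest with 20 or more input reads in each genotype, 25 chosen carriers (9 had a region) and genes with regions on both sides of 0. Genes named beyond this rule (such as *Slc5a3*, *Slc7a6*, *Slc12a4*, *Slc9a9*, those with a count of 0, the Slco family and the 2 with a promoter sequence) were chosen after their values were seen. Members, classes and lists were chosen with earlier results of these data known. RefSeq (GRCm38.p6) gave symbols, all 72 matched, and promoter sequences. Python 3.11.15, pandas 2.3.3, NumPy 2.4.6, SciPy 1.17.1 and Matplotlib 3.10.9 were used. The intervals were run on simulated counts that followed the same counting model, with 2 reads per fragment. That checks the computation only, not how well the model holds for these libraries.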

Additional observations from a re-analysis of the deposited data

How the results depend on the processing

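Of 102 alternative values, 3 changed sign, 11 moved and 88 kept their direction, with counts within 1.5 times and medians and shares within the 95% interval given in the report. Some of those medians still came close to 0. The setting that asked for a peak in at least 1 genotype removed no gene, so its values could only stay the same. Class intervals as wide as -3.68 to 2.90 (ion) leave little but a change of sign to detect. The 88 are therefore no measure of robustness. Subtraction of the median of all regions left 23 members at least 2-fold lower and 22 at least 2-fold higher, and gave medians of -0.28 (all members), -0.18 (nucleoside and nucleotide sugar), 0.50 (amino acid) and 0.32 (organic solute). With the region of most input reads per gene, the organic solute median was 0.23 and the ion median -0.25. With the mean over a gene's regions these were -0.15 and -0.94, and with regions over 1 gene only the amino acid median was -0.0026. With 20 or more input reads in each genotype, 27 of 44 members were at least 2-fold lower and 3 at least 2-fold higher, and 14.6% of regions were called in BKO only. With a peak called in both genotypes, 15 of 29 were at least 2-fold lower and 0 at least 2-fold higher, beside 5.83% of all such genes. In these filters the region was chosen after filtering, so 1 member more than in the report passed the input filter. At a threshold of 3-fold, 7 were higher. With 1 read per fragment, 10 counting intervals lay above 0. The cause of these moves was not tested beyond what each setting takes away. With 3 reads set for counts of 0, the median of the members was -1.34 (68 members, 4 left out), and without the 3 genes that encode no carrier it was -1.32. No paired analysis was possible because each genotype has 1 IP and 1 input library. Depth limits the members with under 20 input reads in a genotype, 29 of 72.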
